A study of Mus musculus with 4 samples.

Results

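Toll-like receptors (TLRs) are membrane proteins with which dendritic cells (DCs) detect microbial lipids, proteins and nucleic acids. The 10 listed mouse receptor genes were Tlr1, Tlr2, Tlr3, Tlr4, Tlr6, Tlr7, Tlr9, Tlr11, Tlr12 and Tlr13. Members were the receptor genes with a probe set that carries their symbol alone, and 9 of the 10 had 1 such probe set each, among 19938 genes with a single-symbol probe set. Tlr11 is not analysed here. The arrays were Affymetrix arrays of DCs grown for 8 days from C57BL/6 bone marrow in 200 ng/ml Flt3 ligand, the cytokine that drives DC development. The groups were CD8-equivalent DCs of miR-142-/- marrow (ko CD8eq), CD8-equivalent DCs of miR-142+/+ marrow (wt CD8eq), CD4-equivalent DCs of miR-142-/- marrow (ko CD4eq) and CD4-equivalent DCs of miR-142+/+ marrow (wt CD4eq). All were sorted as B220-negative and CD11c-positive. CD8-equivalent cells lacked CD172, carried CD24 and had low CD11b, and CD4-equivalent cells carried CD172 and CD11b and had low CD24. Each group was 1 array, so the spread within a group is unknown, and a difference between 2 arrays comes without a p-value. Not given in the labels are the age and sex of the mice, the number of mice or cultures pooled for an array, and the part of the miR-142 locus that was removed.

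TLRs recognise ligands with their leucine-rich ectodomain and signal through a cytoplasmic TIR domain. Most use the adaptor MyD88, and TLR3 uses TICAM1 (TRIF). TLR1, TLR2, TLR4 and TLR6 sit at the cell surface, where TLR2 pairs with TLR1 or TLR6 to bind bacterial lipopeptides and TLR4 with MD-2 binds lipopolysaccharide. TLR3, TLR7, TLR9 and TLR13 sense nucleic acids in endosomes, and mouse TLR11 and TLR12 bind profilin of Toxoplasma. In mouse spleen, CD8-positive DCs are known for TLR3 and for TLR11 and TLR12, and CD8-negative DCs for TLR7. miR-142 is a microRNA of blood cells.

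The deleted microRNA gives 2 mature products, shown because their absence is the genotype compared. They are from RefSeq, GRCm38.p6, plus strand, at chr11:87756903-87756925 and chr11:87756867-87756887, with the seed (bases 2 to 8) in capitals.
mmu-miR-142a-3p: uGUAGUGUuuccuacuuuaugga
mmu-miR-142a-5p: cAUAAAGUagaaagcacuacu
No search for seed matches in receptor transcripts was made. The probe set of Mir142 read 4.79 in ko CD8eq and 9.87 in wt CD8eq DCs, and 4.92 in ko CD4eq and 10.37 in wt CD4eq DCs, as log2 values. It followed the genotype labels.

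The windows from 250 bases before to 50 bases after the annotated start are printed for Tlr3, Tlr12 and Tlr13, the receptors whose values ranged most widely over the arrays, and for Tlr6, which held matches to an interferon response element. They are from RefSeq, GRCm38.p6, at chr8:45410331-45410630 (minus strand), chr4:128618570-128618869 (minus), chrX:106143025-106143324 (plus) and chr5:64959117-64959416 (minus, 1 of 2 starts). Capitals mark matches, on either strand, to GAAA, any 2 bases and GAAA (ISRE-like, an element bound by interferon regulatory factors), to GGAA, any 2 bases and GAAA (EICE-like, bound by an Ets factor with such a factor) or to GAGGAA (the PU box, a core of PU.1 sites). Matches may overlap.
Tlr3: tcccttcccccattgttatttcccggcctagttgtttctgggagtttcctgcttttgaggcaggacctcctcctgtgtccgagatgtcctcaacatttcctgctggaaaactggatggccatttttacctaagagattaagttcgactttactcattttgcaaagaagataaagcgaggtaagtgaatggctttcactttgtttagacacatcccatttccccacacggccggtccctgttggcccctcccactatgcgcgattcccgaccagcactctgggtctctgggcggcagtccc
Tlr12: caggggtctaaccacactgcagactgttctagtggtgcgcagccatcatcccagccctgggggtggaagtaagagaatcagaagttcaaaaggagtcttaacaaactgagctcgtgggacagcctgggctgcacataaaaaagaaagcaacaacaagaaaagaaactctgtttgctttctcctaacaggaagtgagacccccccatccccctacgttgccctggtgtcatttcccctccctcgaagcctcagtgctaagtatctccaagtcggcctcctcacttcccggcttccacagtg
Tlr13: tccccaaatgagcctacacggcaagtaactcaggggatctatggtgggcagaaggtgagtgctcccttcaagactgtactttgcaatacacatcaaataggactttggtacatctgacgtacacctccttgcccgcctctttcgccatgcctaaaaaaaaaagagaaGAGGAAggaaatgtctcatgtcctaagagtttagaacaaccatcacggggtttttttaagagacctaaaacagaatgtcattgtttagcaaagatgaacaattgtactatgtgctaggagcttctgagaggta
Tlr6: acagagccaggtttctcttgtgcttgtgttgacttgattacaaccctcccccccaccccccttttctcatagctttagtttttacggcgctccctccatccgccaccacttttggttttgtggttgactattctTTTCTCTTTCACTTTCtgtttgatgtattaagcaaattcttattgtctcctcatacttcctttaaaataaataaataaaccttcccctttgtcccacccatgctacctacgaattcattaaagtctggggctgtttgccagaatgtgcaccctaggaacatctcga
Of the 9 measured receptors, 7 had a window in the table, and Tlr4 and Tlr7 had none. The ISRE-like letters were present in Tlr6 alone, as 2 overlapping matches, and in 3.44% of 32851 windows of this length. The EICE-like letters were in 0 of the 7 receptors and in 2.72% of all windows. The PU box was in Tlr1, Tlr9 and Tlr13, and in 28.3% of all windows. Receptors are counted by gene and the shares by window, and Tlr1 and Tlr6, with more than 1 window each, matched in 1 window only. Matches are descriptions of letters, and their absence from a window says nothing about a factor.

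Values below are RMA log2 values as deposited, so 1 unit is 2-fold, and levels are compared within a probe set only. The floor of 5.68 is the median of all single-symbol probe sets over the 4 arrays, and 9774 to 9821 genes reached it on an array. All 9 receptors reached the floor, 8 of them on all 4 arrays and Tlr12 on 3. Sirpa, which encodes CD172a, read 9.67 in ko CD8eq and 9.69 in wt CD8eq DCs, against 11.92 in ko CD4eq and 12.11 in wt CD4eq DCs. Itgam (CD11b) and Cd24a also followed the sort. The ko CD4eq array stood apart in the mean of neutrophil markers, 7.88 over 10 markers, against 6.00 in wt CD4eq DCs, 4.88 in ko CD8eq and 4.98 in wt CD8eq DCs. Of these markers, Mmp8 and Csf3r were lower in ko CD4eq than in wt CD4eq DCs.

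**Figure D1:**
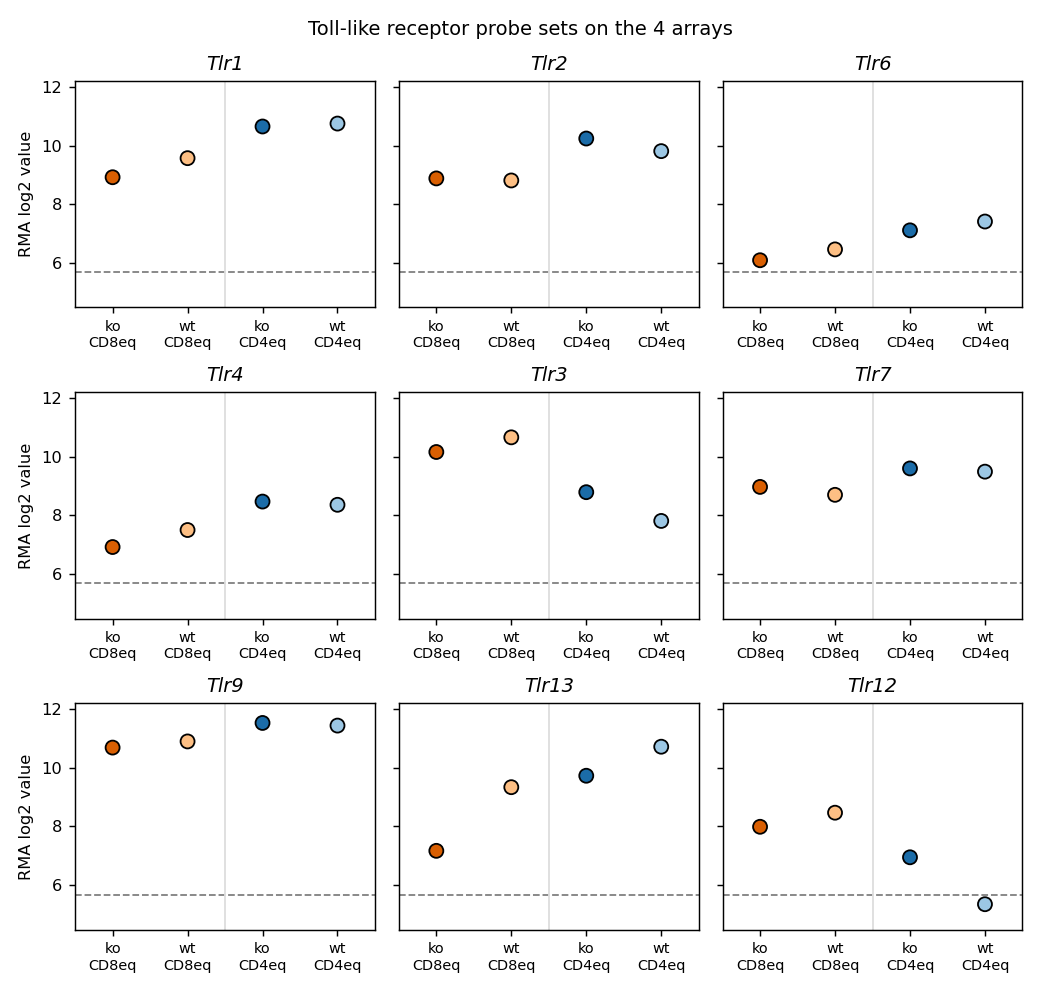
RMA log2 values (y) of the 9 receptor probe sets on the 4 arrays (x), 1 point an array, with the floor of 5.68 as a dashed line. Tlr3 and Tlr12 are higher on both CD8-equivalent arrays and the other 7 receptors are higher on both CD4-equivalent arrays.

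By median size over the receptors, the widest log2 differences were between the sorted subsets, 1.35 in ko and 1.00 in wt. Between the genotypes the median size was 0.48 in CD8-equivalent and 0.30 in CD4-equivalent DCs. Not every pair followed. Tlr13 differed by -2.17 between the genotypes in CD8-equivalent DCs and by -1.39 between the subsets in wt. Tlr12 differed by 1.60 between the genotypes in CD4-equivalent DCs and by 1.04 between the subsets in ko. CD8-equivalent DCs read higher than CD4-equivalent DCs for Tlr3 and Tlr12, and lower for Tlr1, Tlr2, Tlr4, Tlr6, Tlr7, Tlr9 and Tlr13, in both genotypes. Without replicates in a group, neighbouring arrays in the order of a receptor's values cannot be called different. The arrays of the subsets did not overlap for 9 of 9 receptors, against 58.7% of 9877 genes compared in both genotypes. For 2 receptors both CD8eq arrays lay above both CD4eq arrays (37.4% of all genes), and for 7 they lay below (21.3% of all genes). In an additive limma fit of genotype and subset over 10239 genes, with Benjamini-Hochberg adjustment over all of them, 7 receptors were lower and 1 was higher in CD8-equivalent DCs at an adjusted p under 0.05. Over all genes 6.35% were called lower and 7.98% higher. Without the floor, 4 of 9 receptors passed, as Tlr3, Tlr4, Tlr9 and Tlr13 had adjusted p-values of 0.057 to 0.072. With a trended robust prior 7 passed, and Tlr3, the only higher call, did not (adjusted p = 0.10). The fit uses ko and wt as repeats of 1 subset difference and has 1 residual degree of freedom. Its error term is thus how unequal the subset difference is in ko and wt, whether for technical or other reasons. limma combines this with the spread over all genes tested (3.98 prior degrees of freedom). The p-values do not measure a spread between repeats of a group. In sorted cells measured in bulk, fewer cells of a type and less RNA per cell cannot be told apart.

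**Figure D2:**
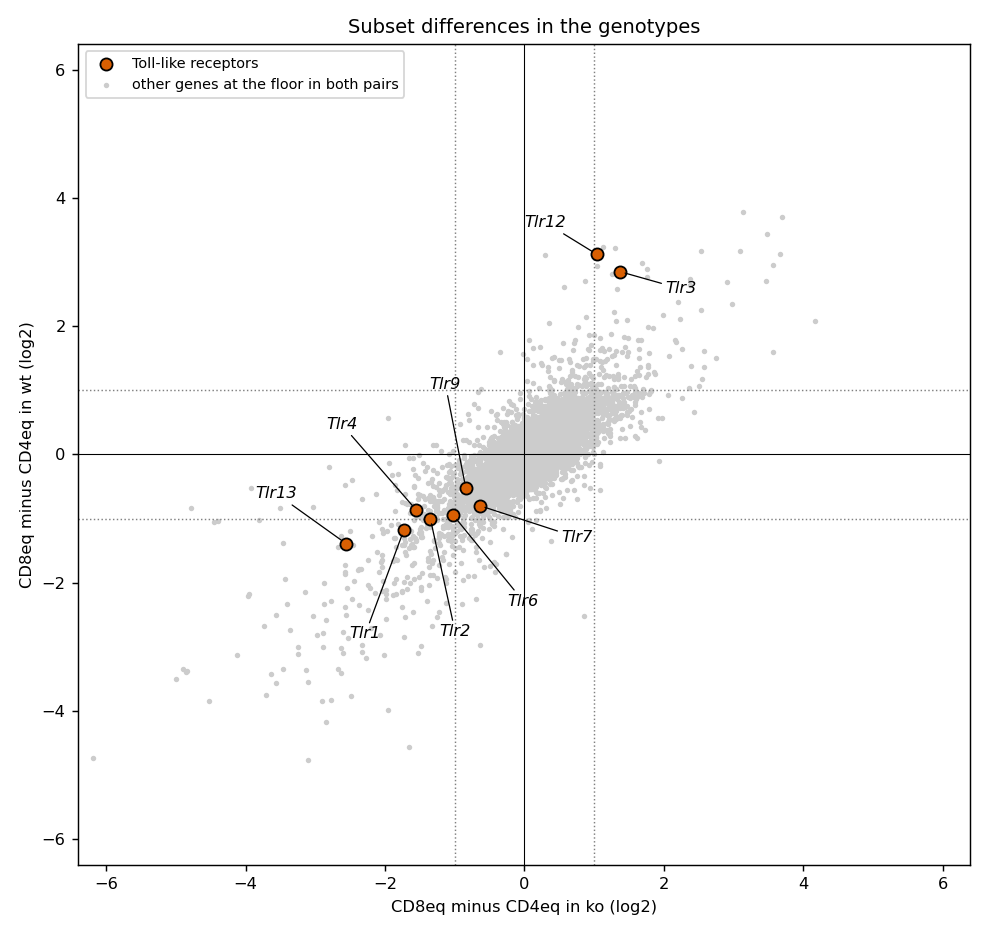
Log2 differences of CD8-equivalent minus CD4-equivalent DCs in ko (x) and in wt (y) for the 9 receptors (orange) and all other genes at the floor in both pairs (grey), with dotted lines at 2-fold. Tlr3 and Tlr12 lie at 2-fold or more above 0 on both axes, and Tlr1 and Tlr13 at 2-fold or more below 0 on both.

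Among the surface receptors, Tlr1 read 8.92 in ko CD8eq and 9.57 in wt CD8eq DCs, against 10.65 in ko CD4eq and 10.75 in wt CD4eq DCs. The CD4-equivalent arrays were close to each other and both were higher. The limma difference, CD8eq minus CD4eq, was -1.45 ± 0.17 (SE; adjusted p = 0.013).

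Tlr2, the shared partner of TLR1 and TLR6, read 8.88 in ko CD8eq and 8.81 in wt CD8eq DCs, against 10.24 in ko CD4eq and 9.81 in wt CD4eq DCs. Within each subset the genotypes were nearer to each other than to the other subset. The difference was -1.17 ± 0.14 (adjusted p = 0.014).

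Tlr6, the other partner of TLR2, read 6.09 in ko CD8eq and 6.46 in wt CD8eq DCs, against 7.11 in ko CD4eq and 7.41 in wt CD4eq DCs. Both CD8-equivalent values were lower, and the difference was -0.98 ± 0.12 (adjusted p = 0.014). Tlr1 and Tlr6 are neighbouring protein-coding genes on chromosome 5 in the RefSeq order and are close paralogs. Whether their probe sets share signal was not tested.

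Tlr4, the lipopolysaccharide receptor, read 6.92 in ko CD8eq and 7.50 in wt CD8eq DCs, against 8.47 in ko CD4eq and 8.36 in wt CD4eq DCs. Its difference was -1.21 ± 0.19 (adjusted p = 0.023), and CD8-equivalent DCs were 2.94-fold lower in ko and 1.83-fold lower in wt. Its co-receptor Cd14, which loads lipopolysaccharide, was also lower in CD8-equivalent DCs, with 7.29 on both CD8eq arrays, against 9.20 in ko CD4eq and 8.40 in wt CD4eq DCs (adjusted p = 0.019). Ly96, which encodes MD-2, read 8.65 in ko CD8eq and 9.63 in wt CD8eq DCs, against 8.97 in ko CD4eq and 9.53 in wt CD4eq DCs. Ly96 did not pass for subset (adjusted p = 0.66). It was chosen for its role after values were seen.

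Among the endosomal receptors, Tlr3, the sensor of double-stranded RNA, ran the other way. Tlr3 read 10.16 in ko CD8eq and 10.66 in wt CD8eq DCs, against 8.79 in ko CD4eq and 7.81 in wt CD4eq DCs. Both CD8-equivalent arrays were above both CD4-equivalent arrays, and the ko arrays lay between the wt arrays. In limma Tlr3 was higher by 2.11 ± 0.35 (adjusted p = 0.025, and 0.072 without the floor or 0.10 with the trended robust prior). The CD8eq over CD4eq ratio was 2.58-fold in ko and 7.23-fold in wt. In wt, Tlr3 ranked 15 from the highest of 9998 genes compared.

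Tlr7, a sensor of single-stranded RNA, read 8.97 in ko CD8eq and 8.70 in wt CD8eq DCs, against 9.60 in ko CD4eq and 9.49 in wt CD4eq DCs. Tlr9, the sensor of unmethylated CpG DNA, read 10.69 in ko CD8eq and 10.90 in wt CD8eq DCs, against 11.53 in ko CD4eq and 11.44 in wt CD4eq DCs. These receptors had the narrowest ranges over the arrays, 0.90 for Tlr7 and 0.84 for Tlr9. Their limma differences were -0.72 ± 0.12 (adjusted p = 0.026) and -0.69 ± 0.13 (adjusted p = 0.036), and neither reached 2-fold in either genotype.

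Tlr13, which in mice recognises bacterial ribosomal RNA, read 7.17 in ko CD8eq and 9.34 in wt CD8eq DCs, against 9.73 in ko CD4eq and 10.72 in wt CD4eq DCs. Its range of 3.56 was the widest of the 9 receptors, with the ko array below the wt array in each subset. The difference was -1.97 ± 0.29 (adjusted p = 0.020), and CD8-equivalent DCs were 5.91-fold lower in ko and 2.62-fold lower in wt.

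Tlr12, the profilin receptor, read 7.99 in ko CD8eq and 8.47 in wt CD8eq DCs, against 6.95 in ko CD4eq and 5.35 in wt CD4eq DCs. The wt CD4eq value lay below the floor, and the other 3 arrays above it. With the floor in place of that value, CD8-equivalent DCs were at least 6.93-fold higher in wt, and in ko they were 2.06-fold higher. The limma difference, fitted on the values as measured, was 2.08 ± 0.48 and had an adjusted p of 0.052 and did not pass. Its SE was the widest of the receptors, as the subset differences of the genotypes were the least equal.

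At 2-fold or more, in ko, 2 of 9 receptors (Tlr3 and Tlr12) were higher in CD8-equivalent DCs and 5 (Tlr1, Tlr2, Tlr4, Tlr6 and Tlr13) were lower, where 3.39% and 3.90% of 10118 genes were. In wt the counts were 2 (Tlr3 and Tlr12) and 2 (Tlr1 and Tlr13), where 2.10% and 3.14% of 9998 genes were, and Tlr2 lay at the edge with -0.997, just under 2-fold. In ko, the split of all 2-fold genes was 343 higher and 395 lower as deposited, and 248 higher and 469 lower after cyclic loess, with a median over all genes of 0.114 as deposited and 0.011 after loess. The median difference of the receptors was -1.02 in ko and -0.87 in wt, against 0.114 and 0.039 over all genes compared.

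Tlr8, an endosomal receptor that is no member and was added after its values were seen, read 5.03 in ko CD8eq and 5.93 in wt CD8eq DCs, against 7.64 in ko CD4eq and 8.70 in wt CD4eq DCs. Its difference was -2.69 ± 0.12 (adjusted p = 0.0023), and the ko CD8eq value lay below the floor. Tlr8 is the RefSeq neighbour of Tlr7 on chromosome X, and Tlr7 differed between the subsets by 1.55-fold in ko and 1.74-fold in wt. Tlr8 differed by at least 3.89-fold in ko, taken against the floor, and by 6.82-fold in wt. The difference between the genes was not tested.

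Marker genes of other cell types moved with the subsets, and their part in the receptor differences was not tested. Over all genes limma called 6.35% lower and 7.98% higher in CD8-equivalent DCs. Of 9 monocyte and macrophage markers at the floor, limma called 4 lower (Adgre1, Csf1r, Fcgr1 and Ms4a7) and 0 higher in CD8-equivalent DCs. Their mean over the 11 measured was 7.13 in ko CD8eq and 8.21 in wt CD8eq DCs, against 9.39 in ko CD4eq and 9.30 in wt CD4eq DCs. The number at the floor was 5 in ko CD8eq and 9 on each of the other arrays. Of 9 plasmacytoid markers, 7 were higher and 0 lower in CD8-equivalent DCs, with means of 10.28 in ko CD8eq and 10.06 in wt CD8eq DCs, against 9.18 in ko CD4eq and 8.24 in wt CD4eq DCs. Plasmacytoid DCs carry B220, and the sort kept B220-negative cells. Of 9 CD4-equivalent markers 8 were lower and 0 higher, and of 10 CD8-equivalent markers 4 were higher and 0 lower. Of 9 neutrophil markers 2 (Mmp8 and Csf3r) were lower, and 0 of 10 neutrophil markers reached the floor on either CD8eq array. Of 5 measured B cell markers 1 or 2 reached the floor on an array, and 0 were called.

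**Figure D3:**
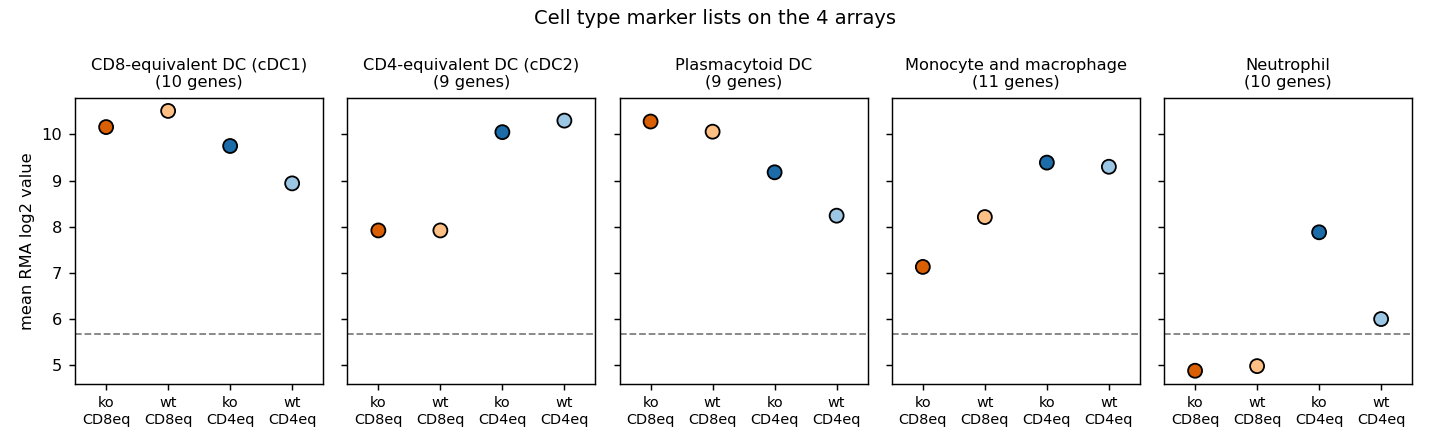
Mean RMA log2 values (y) of the markers of 5 cell types on the 4 arrays (x), 1 point an array, with the floor of 5.68 as a dashed line. The monocyte and macrophage mean is lowest in ko CD8eq DCs (7.13), and the neutrophil mean is highest in ko CD4eq DCs (7.88).

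Between ko and wt, the limma difference was smaller in size than between the subsets for 9 of 9 receptors. In this fit that order follows wherever the arrays of the subsets do not overlap, so it is no separate result. The arrays of the subsets did not overlap for 58.7% of 9877 genes. No receptor passed limma's genotype test, which averages over the subsets: 0 of 9 had an adjusted p under 0.05, where 0.166% of 10239 genes did. At an unadjusted p under 0.05 there were 2, Tlr13 and Tlr6, where 15.6% of all genes were. For 0 of 9 receptors did both ko arrays lie above, or both below, the wt arrays, against 28.5% of 9711 genes. This 0 is fixed by the subset values, because the arrays of the subsets did not overlap for 9 of 9 receptors. It therefore gives no measure of the genotype difference. At 2-fold or more, 1 receptor (Tlr13) was lower and 0 were higher in ko CD8eq than in wt CD8eq DCs, where 1.00% and 1.14% of 9972 genes were. In CD4-equivalent DCs 1 receptor (Tlr12) was higher and 0 were lower in ko, where 1.39% and 0.952% of 9978 genes were. No other receptor reached 2-fold in either subset, although Tlr3 (1.98-fold higher) and Tlr13 (1.99-fold lower) came close in CD4-equivalent DCs. Of all genes at 2-fold in that pair, 139 were higher and 95 lower in ko as deposited, and 174 higher and 77 lower after cyclic loess.

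**Figure D4:**
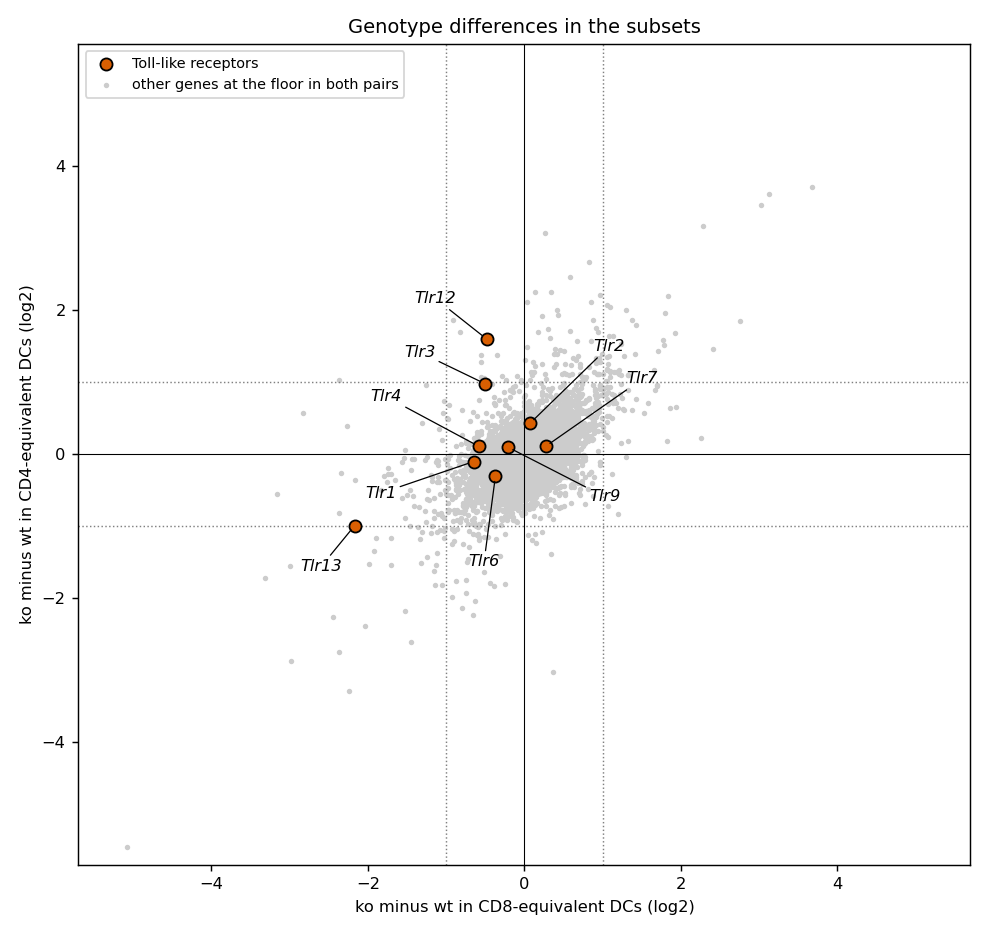
Log2 differences of ko minus wt in CD8-equivalent (x) and in CD4-equivalent DCs (y) for the 9 receptors (orange) and all other genes at the floor in both pairs (grey), with dotted lines at 2-fold. Tlr13 lies below 0 in both subsets (-2.17 in CD8-equivalent and -0.99 in CD4-equivalent DCs), and Tlr3 and Tlr12 lie left of 0 and above 0.

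Tlr13 had the largest genotype difference in limma, -1.58 ± 0.29 (adjusted p = 0.11), and was lower in ko in both subsets. It stood 4.50-fold lower in ko CD8eq than in wt CD8eq DCs and 1.99-fold lower in ko CD4eq than in wt CD4eq DCs. In CD8-equivalent DCs it ranked 16 from the lowest of 9972 genes compared, and 0.150% of genes had a lower difference. Most monocyte and macrophage markers were lower on the same array pair. Over all genes compared in that pair, 1.00% were lower and 1.14% higher in ko at 2-fold. Of 9 markers at the floor 6 were at least 2-fold lower and 0 at least 2-fold higher in ko CD8eq than in wt CD8eq DCs, with a median difference of -1.31. Csf1r (0.38), Fcgr1 (-0.05) and Ccr2 (-0.07) did not follow. In the CD4-equivalent pair 1.39% of all genes were higher and 0.952% lower in ko at 2-fold. There the median difference of the 9 markers was 0.22, with 1 higher (C1qb, 1.03) and 1 lower at 2-fold. The lower gene was Adgre1, which encodes a macrophage surface receptor, with -3.00 between the CD8eq and -1.55 between the CD4eq arrays. Its ko CD8eq value of 5.08 lay below the floor. The part of these markers in the Tlr13 difference was not tested.

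Tlr12 was at least 2.42-fold higher in ko CD4eq than in wt CD4eq DCs, with the floor in place of the wt value below it. Between the CD8-equivalent arrays it differed by -0.48. Tlr3 showed the same pair of signs, with -0.50 between the CD8-equivalent and 0.98 between the CD4-equivalent arrays. The subsets were less far apart in ko than in wt for both receptors. Of 9 markers of CD8-equivalent DCs compared in the CD4-equivalent pair, 4 (Clec9a, Cadm1, Irf8 and Cd24a) reached 2-fold upward in ko and 0 downward, with a median difference of 0.49. Of all genes compared in that pair, 1.39% were higher and 0.952% lower at 2-fold. The chemokine receptor gene Xcr1, a defining marker, differed by 0.49, and the other 4 by 0.01 (Naaa), -0.03 (Ppt1), -0.04 (Batf3) and -0.29 (Wdfy4). Clec9a, a receptor for dead cells, read 10.85 in ko CD4eq and 7.78 in wt CD4eq DCs. Cadm1, an adhesion molecule, read 8.18 in ko CD8eq and 7.36 in wt CD8eq DCs, against 9.89 in ko CD4eq and 7.22 in wt CD4eq DCs, so on these arrays it did not mark the CD8-equivalent subset. Irf8, the transcription factor on which CD8-positive DCs depend, read 12.42 in ko CD4eq and 11.13 in wt CD4eq DCs, and 12.98 in ko CD8eq and 12.87 in wt CD8eq DCs. In CD8-equivalent DCs the marker list had a median difference of -0.18, with 1 of 10 at least 2-fold lower (Itgae). The ko CD8eq value of Itgae lay below the floor, and 1.00% of all genes compared were at least 2-fold lower. The part of these markers in the receptor values was not tested.

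The remaining receptors differed less between the genotypes. Tlr1 was lower in ko in both subsets (-0.65 between the CD8eq and -0.10 between the CD4eq arrays), as was Tlr6 (-0.37 and -0.30 in the same order). Tlr2 (0.07 and 0.43) and Tlr7 (0.27 and 0.11) were higher in ko in both. Tlr4 (-0.58 and 0.11) and Tlr9 (-0.21 and 0.10) had opposite signs, which with Tlr3 and Tlr12 makes 4 of 9 receptors, where 38.0% of 9711 genes had them. Their limma genotype differences ran from -0.37 ± 0.17 for Tlr1 to 0.25 ± 0.14 for Tlr2, with adjusted p-values of 0.28 to 0.89 for these 6 receptors. Of all genes compared in the CD4-equivalent pair, 1.39% were at least 2-fold higher in ko. Of the markers of neutrophils, cells that carry TLR2 and TLR4, 7 of 9 were at least 2-fold higher in ko CD4eq than in wt CD4eq DCs (median difference 3.08), and 4 of 10 reached the floor in wt CD4eq DCs. Mmp8 (-0.69) and Csf3r (-0.74) went the other way. On the same array pair Tlr2 stood at 0.43 and Tlr4 at 0.11. Plasmacytoid markers had a median difference of 0.65, with 3 of 9 at least 2-fold higher, where Tlr7 stood at 0.11 and Tlr9 at 0.10. The part of these markers in the receptor values was not tested either.

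Over the 9 receptors the median ko minus wt difference was -0.48 in CD8-equivalent DCs, against 0.004 over all genes, and 0.11 in CD4-equivalent DCs, against -0.077 over all genes. In CD8-equivalent DCs 7 of 9 lay below 0, where 49.3% of genes did, and in CD4-equivalent DCs 3 of 9, where 63.8% did. The difference of these differences (CD8-equivalent minus CD4-equivalent) uses the last degree of freedom and has no test. It was -2.08 for Tlr12, whose wt CD4eq value lay below the floor, -1.49 for Tlr3 and -1.18 for Tlr13, and these 3 of 9 exceeded 2-fold, where 2.24% of genes did. For Tlr7 it was 0.16, the only positive value, and for the other 5 it ran from -0.69 (Tlr4) to -0.07 (Tlr6).

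**Figure D5:**
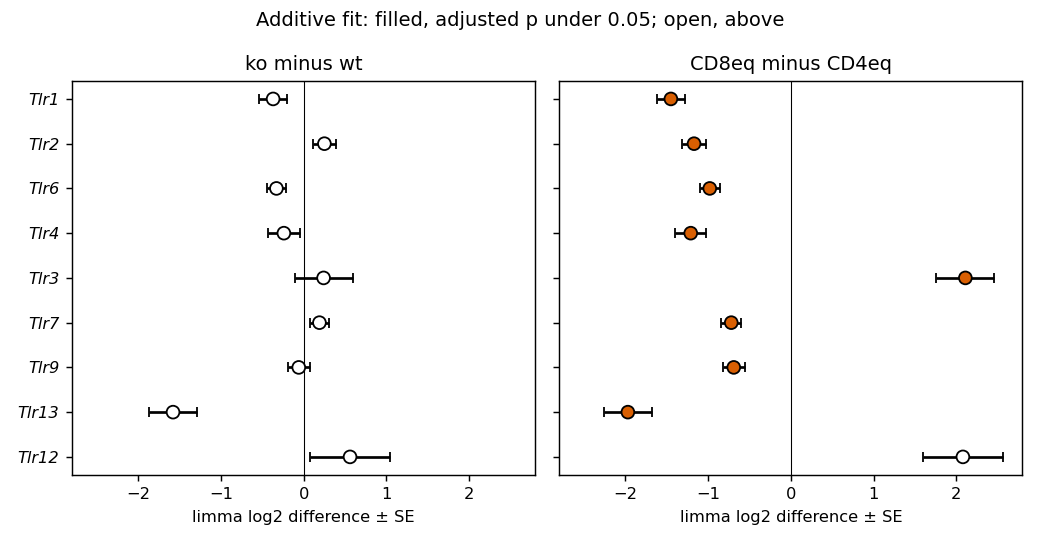
Log2 differences (x) with their SE from the additive limma fit for the 9 receptors (rows), ko minus wt on the left and CD8eq minus CD4eq on the right, filled where the adjusted p is under 0.05. On the left 0 points are filled, and on the right 8 are, all but Tlr12.

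Among the receptors themselves, the profiles most alike over the 4 arrays were those of Tlr1 and Tlr4 (Euclidean distance 0.29 between mean-centred log2 values), Tlr7 and Tlr9 (0.34) and Tlr4 and Tlr6 (0.40). Tlr3 and Tlr12 stood 0.44 apart. Over the 10239 genes at the floor, the nearest profile to both Tlr3 and Tlr12 was that of Pdia5, a protein disulfide isomerase, at 0.39 and 0.38. For Tlr12 the next were Tlr3 and Rtl8c (0.48), and for Tlr3 the sorting nexin gene Snx22 (0.43) and then Tlr12. Nearest to Tlr13 were Ifitm6, an interferon-induced transmembrane protein gene (0.59), Gask1b (0.62) and Tgfbi, which encodes an extracellular matrix protein (0.63). These are descriptions over 4 arrays, and many profiles are alike over so few points.

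The genes through which the receptors signal were read from lists of 98 genes, of which 90 were measured and 78 reached the floor. Limma called 0 of the 78 for genotype (16, or 20.5%, at an unadjusted p under 0.05, against 0.166% adjusted and 15.6% unadjusted over all genes) and 21 for subset, 1 higher and 20 lower in CD8-equivalent DCs. That is 26.9%, against 14.3% of all genes. Of 21 trafficking, co-receptor and ligand-processing genes, 2 were lower, Cd14 and the endosomal protease gene Ctss (11.39 in ko CD8eq and 11.66 in wt CD8eq DCs, against 12.43 in ko CD4eq and 12.18 in wt CD4eq DCs, adjusted p = 0.042). Unc93b1, the chaperone that carries the nucleic acid sensors to endosomes and was chosen for that role after values were seen, ranged over 0.24 (adjusted p = 0.92 for subset). Cd36, a co-receptor of TLR2 with TLR6, had the lowest genotype differences on this list, -1.27 between the CD8eq and -0.79 between the CD4eq arrays (adjusted p = 0.080). The highest were Hmgb1 (0.72), a nuclear protein gene, between the CD8eq arrays and Cd14 (0.80) between the CD4eq arrays.

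Of 5 TIR adaptor genes at the floor, 1 was lower in CD8-equivalent DCs. This was Ticam2, the bridge between TLR4 and TICAM1, with 7.06 in ko CD8eq and 7.32 in wt CD8eq DCs, against 8.15 in ko CD4eq and 8.27 in wt CD4eq DCs (adjusted p = 0.014). Myd88 read 10.83 in ko CD8eq and 11.22 in wt CD8eq DCs, against 11.37 in ko CD4eq and 11.51 in wt CD4eq DCs, and did not pass (adjusted p = 0.092). Among 16 kinase and ubiquitin ligase genes, 1 was lower, Map3k8, which encodes the kinase TPL2 (adjusted p = 0.016). Peli2, a Pellino ubiquitin ligase gene, was the only gene on that list at 2-fold between the genotypes, with ko minus wt of 1.10 between the CD8eq and 1.15 between the CD4eq arrays, and did not pass (adjusted p = 0.053).

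Of 12 transcription factor genes tested, 5 were lower in CD8-equivalent DCs (Nfkb2, Relb, Irf7, Jun and Atf3) and 0 higher. The NF-kB subunit gene Relb read 5.95 in ko CD8eq and 6.10 in wt CD8eq DCs, against 7.12 in ko CD4eq and 7.25 in wt CD4eq DCs (adjusted p = 0.0098). Of 12 inhibitor genes, 4 were lower (Irak3, Tnip1, Tnip3 and Usp18) and 0 higher. Irak3, which encodes a pseudokinase that restrains TLR signalling, read 6.94 in ko CD8eq and 6.79 in wt CD8eq DCs, against 9.01 in ko CD4eq and 9.60 in wt CD4eq DCs (adjusted p = 0.0069).

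Response genes, which TLR ligands are known to induce, were read in cells for which the labels name no such ligand. Of 12 tested, 7 were lower in CD8-equivalent DCs (Il15, Tnf, Cxcl10, Ccl3, Ccl5, Cd40 and Ptgs2) and 1 was higher. The higher gene was Il12a, the p35 subunit of interleukin-12, with 9.36 in ko CD8eq and 8.17 in wt CD8eq DCs, against 5.69 in ko CD4eq and 5.04 in wt CD4eq DCs (adjusted p = 0.0027). The wt CD4eq value of Il12a lay below the floor. The chemokine gene Ccl5 had the lowest subset differences of this list, with 6.23 in ko CD8eq and 6.48 in wt CD8eq DCs, against 10.36 in ko CD4eq and 9.61 in wt CD4eq DCs (adjusted p = 0.0047). Between the genotypes, Il1b had the lowest difference in CD8-equivalent DCs (5.19 in ko CD8eq and 8.35 in wt CD8eq DCs), and Cd86 in CD4-equivalent DCs (8.39 in ko CD4eq and 9.75 in wt CD4eq DCs). The ko CD8eq value of Il1b lay below the floor. Neither Il1b nor Cd86 passed the limma genotype test (adjusted p = 0.25 and 0.053). The highest differences were those of Il12a (1.19) between the CD8eq arrays and Il12b (1.13) between the CD4eq arrays. Il12b read 6.10 in ko CD4eq and 4.97, below the floor, in wt CD4eq DCs. Il12a and Il12b did not pass either (adjusted p = 0.11 and 0.49).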

How the data were processed

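Total RNA of sorted DCs was hybridised to 4 Affymetrix arrays, 1 a group. The deposited values are log2 summaries for each probe set. They were made with RMA and Partek, per the submitters' processing notes. RMA corrects background, quantile-normalises arrays and summarises probes, and it compresses low differences. The software versions were not given in the sources used here, the log base was inferred from the range of 3.52 to 14.33, and column medians ran from 5.87 to 5.94. Of 35399 probe sets, 21789 carried 1 symbol in the platform annotation, 1621 several and 11989 were unnamed here. The set with the highest mean stood for a gene with several. Sample groups came from the titles.

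Pairs of arrays were compared by subtraction, where the higher value reached the floor of 5.68, with 2-fold as the threshold. limma 3.58.1 in R 4.3.3 (lmFit, eBayes, two-sided, genotype plus subset, 3.98 prior and 1 residual degrees of freedom) was run on genes at the floor on any array and tested on simulated data. The simulated genotype differences were equal in both subsets, and how many were recovered is not reported here. Alternatives were no floor, a trended robust prior, cyclic loess, and the mean of a gene's probe sets. Named pathway genes were those limma called and the extremes of each pair. The members and lists were chosen with earlier results of these data known. The number of arrays limits the precision.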

Additional observations from a re-analysis of the deposited data

Results flagged for a closer look

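For 4 receptors the ko minus wt difference had opposite signs in the subsets, and the difference between the subsets was not tested. Tlr12 stood at -0.48 between the CD8eq and 1.60 between the CD4eq arrays, where its wt value lay below the floor, and Tlr3 at -0.50 and 0.98. In the same order Tlr4 stood at -0.58 and 0.11, and Tlr9 at -0.21 and 0.10. Opposite signs occurred in 38.0% of 9711 genes compared in both subsets, so 4 of 9 is near the background.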

How the results depend on the processing

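No receptor difference changed sign after cyclic loess. The other alternatives leave the receptor values as they are, since each receptor had 1 probe set, so they could not change a sign. Without the floor, limma's calls for subset were 4 of 9 receptors, against 8 as reported, and Tlr3 (adjusted p = 0.072), Tlr4 (0.058), Tlr9 (0.060) and Tlr13 (0.057) no longer passed. That setting tests 19938 genes, and over the whole table its calls were 946 for subset, against 1467, and 3 for genotype, against 17. With a trended robust prior, 307 genes were called for genotype, 0 of them receptors, and 7 receptors for subset, without Tlr3 (adjusted p = 0.10). Tlr8, no member, passed for genotype there (-0.98, adjusted p = 0.028), against an adjusted p of 0.061 with the standard prior. After cyclic loess, 2 receptors were 2-fold apart between the genotypes in CD4-equivalent DCs, Tlr12 (1.72) and Tlr3 (1.08), against 1 as reported, and Tlr12 was under 2-fold between the subsets in ko (0.90). Limma's genotype test called 0 receptors under each alternative. The additive fit gives 1 genotype difference averaged over the subsets and 1 subset difference averaged over the genotypes. A genotype difference confined to 1 subset, or opposite in the subsets, has no test of its own. Leaving out an array leaves no residual degree of freedom.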
